A study of Mus musculus with 8 samples.

Results

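The mouse major histocompatibility complex (MHC) genes were followed across kidney, liver, lung and small intestine. The members were every gene of the deposited table whose symbol starts with H2-, together with Cd74, Ciita, B2m, Tap1, Tap2 and Nlrc5, which gave 51 of 52195 genes. By symbol, 2 were classical class I genes (H2-K1 and H2-D1), 29 were non-classical class I genes and 12 were class II genes. Another 6 were partners and regulators, and 2 were other H2- symbols (H2-K2, a pseudogene, and H2-Ke6).

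Polyadenylated RNA was sequenced in bulk in 8 libraries, 2 from each tissue, as whole-tissue profiles from which cell-type composition was to be estimated. The animals were males of strain C57BL/6 (C57BL/6J in the study's methods), 6 to 10 weeks old, with no treatment named, and each tissue was rinsed in PBS and ground whole, with no sorting of its cells. All 4 tissues were taken from each mouse, and the 2 libraries of a tissue came from separate mice. Levels are given as FPKM, a fragment count scaled to exon length and library size. Differences are given on the log2(FPKM + 1) scale, which understates the change of genes near 0. Each sets 1 tissue beside the average of the 3 others and comes with the standard error (SE) of the fit and a p-value adjusted over 16328 genes. A gene was called where the adjusted p was below 0.05 and the log2 difference was above 1 in either direction.

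The depth recovered from the steps of the FPKM values was 9164187 to 21444675 reads per library. In each tissue its own markers were called higher, for example Alb in liver, Umod in kidney, Sftpc in lung and Fabp2 in small intestine. Mitochondrial genes and pseudogenes took 22.8% to 25.4% of the summed FPKM in lung and 40.5% to 68.4% in the other libraries. The log2 differences of all genes tested had a median of 0.82 in lung, -0.34 in kidney, -0.72 in liver and -0.01 in small intestine. With median-of-ratios scaling, which sets the typical gene equal across libraries, these medians were -0.02, -0.11, -0.14 and -0.05. Each difference of a member is therefore read against these shifts.

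Class I molecules pair a heavy chain with beta-2 microglobulin and present peptides from inside the cell to CD8 T cells and natural killer cells. Nearly all nucleated cells carry the classical heavy chains, whereas the non-classical ones are more restricted in place and in ligand. Class II molecules pair an alpha and a beta chain, take up peptides from endosomes once the invariant chain Cd74 has been removed, and present them to CD4 T cells. Class II is known from dendritic cells, B cells and macrophages and, under stimulation, from some epithelia, and its transcription depends on the coactivator Ciita.

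Lung held the highest mean FPKM for 27 of the 35 members that passed the filter on low values (2 libraries or more with an FPKM of at least 1). Small intestine held the highest mean for 7, liver for H2-Q10 alone and kidney for none. With median-of-ratios scaling the numbers were 22 for lung, 8 for small intestine, 5 for liver (H2-Q10, H2-K1, B2m, H2-K2 and H2-T22) and 0 for kidney. Summed class II FPKM was highest in lung, next in small intestine and low in kidney and liver. The classical class I sum was lowest in kidney, with liver between kidney and small intestine as deposited. A few non-classical class I genes stood apart from both patterns, with H2-Q10 in liver and H2-Q2, H2-T3, H2-Q1 and H2-Bl in small intestine far above every other tissue. The heat map of the 36 members described by name shows these blocks.

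**Figure D1:**
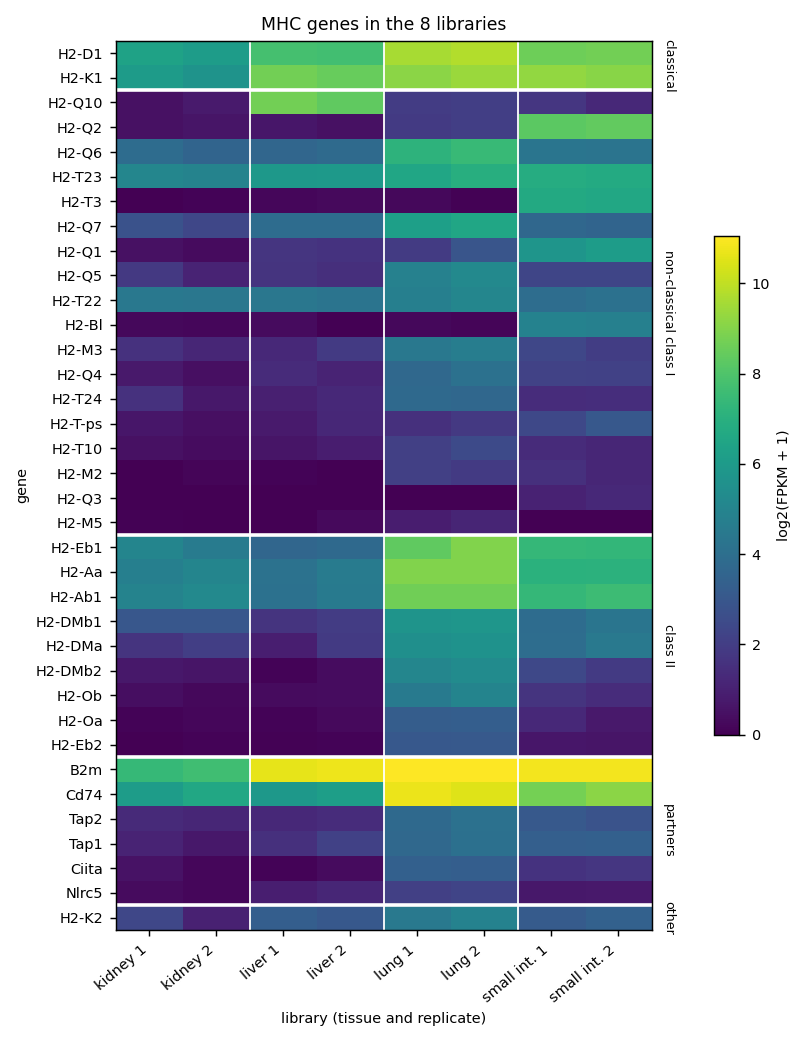
Heat map of the 36 MHC genes described by name (vertical axis, grouped by class) in the 8 libraries (horizontal axis), coloured by log2(FPKM + 1). The class II block is brightest in both lung libraries, H2-Q10 is bright in the liver libraries only, and H2-Q1, H2-Q2, H2-T3 and H2-Bl are bright in the small intestine libraries only.

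Of the 35 members tested, 26 were called higher and 4 lower in lung, where 40.7% of all genes tested were called higher and 8.26% lower. In kidney 31 were called lower and none higher, against a background of 16.1% and 8.65%. In liver 1 was called higher and 20 lower, with 6.56% and 32.7% of all genes. In small intestine 13 were called higher and 1 lower, with 13.7% and 11.3% of all genes. The median log2 difference of the 35 members was 2.14 in lung, -1.74 in kidney, -1.17 in liver and 0.67 in small intestine. With median-of-ratios scaling, 18 members were called higher and 5 lower in lung (14.6% and 16.0% of all genes), and 27 lower and none higher in kidney (12.1% and 11.5%). There were 3 higher and 12 lower in liver (12.3% and 13.9%) and 12 higher and 1 lower in small intestine (13.0% and 11.6%). The member medians under that scaling were 1.12, -1.44, -0.46 and 0.61. Of the 96 calls made as deposited, 75 were also made under that scaling, 3 were made under it alone (H2-K1 and B2m higher in liver, H2-Q1 lower in lung), and none changed sign. The calls that ended were H2-K1, H2-D1, B2m, Tap1, Nlrc5, H2-M2, H2-T10 and H2-K2 in lung and B2m in small intestine. They also included H2-T10, H2-M2, H2-Eb2 and Nlrc5 in kidney, and H2-Q1, H2-Q5, H2-Q6, H2-M2, H2-M3, H2-Oa, H2-Eb2 and Tap2 in liver. The 4 comparisons use the same 8 libraries, and 4 members (H2-Eb2, H2-T3, H2-Bl and H2-Q3) passed the filter through a single tissue and so had to differ there. Only 19 members reached an FPKM of 1 in all 4 tissues, in at least 1 library of each. None of the other members tested reached it in kidney, so the filter favoured their lower calls there. The same held in liver for the members that passed through lung, small intestine or both alone.

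**Figure D2:**
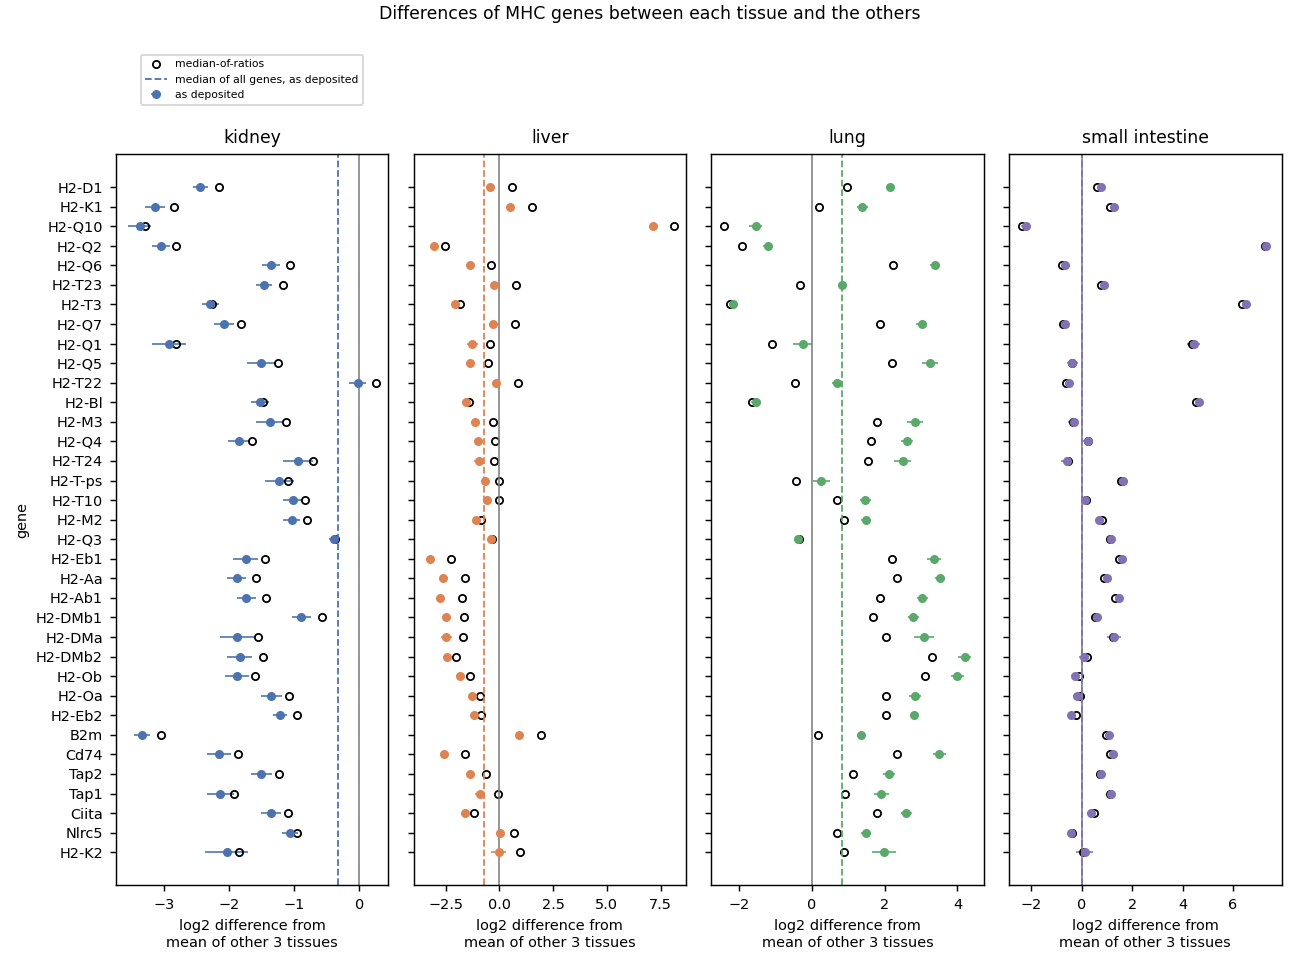
Log2 differences of the 35 tested MHC genes (vertical axis) in each tissue relative to the average of the 3 others (horizontal axis, whose range differs between panels). Filled points with standard error bars are the values as deposited, open points those with median-of-ratios scaling, and the dashed line is the median over all genes tested as deposited. Nearly all members lie left of 0 in kidney and most lie right of 0 in lung, while H2-Q10 in liver (7.15) and H2-Q2 (7.30) and H2-T3 (6.51) in small intestine lie far from the other members. The differences that changed sign between scalings, which were not called, were H2-T22 in kidney, H2-T22, H2-D1, H2-K2, H2-T23 and H2-Q7 in liver, and H2-T22, H2-T23 and H2-T-ps in lung.

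The classical heavy chain H2-K1 (chr17:33996017-34000347, minus strand, GRCm38) was measured at FPKM values of 66 and 49.6 in kidney, 420.0 and 351 in liver, 556 and 666 in lung and 602 and 548 in small intestine. Both kidney libraries lay below every other library, and the lung and small intestine libraries overlapped. H2-K1 was lower in kidney by a log2 difference of -3.14 ± 0.15 (SE, adjusted p = 4.38e-06), and it was called in each pair of tissues with kidney and in no other pair. The differences of H2-K1 of 1.38 in lung and 1.27 in small intestine were also called, but in lung the value was 0.20 and not called with median-of-ratios scaling. With that scaling H2-K1 and B2m were called higher in liver.

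H2-D1, the other classical heavy chain of this strain (chr17:35262730-35267499, plus strand), was measured at 82.4 and 68.6 in kidney, 219 and 209 in liver, 787 and 867 in lung and 388 and 409 in small intestine. The libraries of the 4 tissues did not overlap, and the order as deposited was lung, small intestine, liver and kidney. Liver and small intestine were the only neighbouring tissues not called apart. The log2 difference was -2.44 ± 0.12 (SE, adjusted p = 3.97e-06) in kidney and 2.14 ± 0.12 (SE, adjusted p = 2.75e-06) in lung, the latter 0.96 and not called with median-of-ratios scaling. H2-K1 and H2-D1 share part of their sequence: 26.9% of the 31-base words of H2-D1 exons occurred in another gene, most of them in H2-K1, so some reads of these genes may be split between them.

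The balance of these heavy chains was not the same in all tissues. Within a library, where scaling between libraries plays no part, the ratio of H2-K1 to H2-D1 was 0.802 and 0.724 in kidney, 1.92 and 1.68 in liver, 0.707 and 0.769 in lung and 1.55 and 1.34 in small intestine. H2-K1 exceeded H2-D1 in all 4 liver and small intestine libraries, and H2-D1 exceeded H2-K1 in all 4 kidney and lung libraries.

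B2m, the light chain shared by all class I molecules (chr2:122147686-122153083, plus strand), was measured at 166 and 202 in kidney, 1608 and 1735 in liver, 2117 and 2095 in lung and 1861 and 1841 in small intestine. The lowest library outside kidney was 7.98-fold above the higher kidney library, and liver, lung and small intestine were not called apart from each other. The log2 difference in kidney was -3.35 ± 0.12 (SE, adjusted p = 1.14e-06). The calls of B2m in lung (1.35) and small intestine (1.10) ended with median-of-ratios scaling, where the values were 0.16 and 0.96. The ratio of B2m to the summed heavy chains was 0.718 and 1.06 in kidney, 1.37 and 1.72 in liver, 1.20 and 1.02 in lung and 1.12 and 1.11 in small intestine. The kidney values of this ratio overlapped those of lung. B2m shared no 31-base word with another gene.

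Peptides for class I are cut by the proteasome and carried into the endoplasmic reticulum by the transporter subunits Tap1 and Tap2. Tap1 was measured at 1.12 and 0.644 in kidney, 1.85 and 3.34 in liver, 12.5 and 16.1 in lung and 9.01 and 9.60 in small intestine. Both lung libraries of Tap1 lay above every other library and small intestine came next, with log2 differences of 1.90 ± 0.21 (SE, adjusted p = 9.32e-05) in lung, 1.15 in small intestine and -2.14 ± 0.21 (SE, adjusted p = 1.08e-04) in kidney. Tap2 was measured at 1.48 and 1.27 in kidney, 1.41 and 1.67 in liver, 12.8 and 16.6 in lung and 7.46 and 6.07 in small intestine, and was called higher in lung (2.12) and lower in kidney (-1.51) and liver (-1.38). With median-of-ratios scaling the call of Tap1 in lung ended (0.89), as did that of Tap2 in liver (-0.61). Nlrc5, the coactivator of class I transcription, was low throughout, at 0.264 and 0.129 in kidney, 0.912 and 1.27 in liver, 3.21 and 3.78 in lung and 0.641 and 0.707 in small intestine. Nlrc5 was highest in lung, with a log2 difference of 1.48 ± 0.13 (SE, adjusted p = 2.65e-05) that fell to 0.70 and was not called with median-of-ratios scaling.

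Class I promoters are known to carry a SXY module, which ends in a Y box with the letters ATTGG or, on the other strand, CCAAT. Sequences were taken from RefSeq promoters (GRCm38.p6) for 34 of the 51 members, 1 promoter for each start, and the 250 bases before the start were searched on both strands. ATTGG occurred in 3 of 3 classical, 19 of 22 non-classical and 8 of 9 class II promoters, and in 33.8% of all 32851 promoters. The 50 bases of H2-K1 around its ATTGG are shown with the closest ungapped window of other class I promoters, because these genes were broad, lung-high or tissue-restricted in the values given here. Each run is read 5′ to 3′ on the strand of its gene, and capitals mark ATTGG.
H2-K1, chr17:34000344-34000393, minus strand: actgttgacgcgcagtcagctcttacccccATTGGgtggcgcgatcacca
H2-D1, chr17:35262988-35263037, plus strand: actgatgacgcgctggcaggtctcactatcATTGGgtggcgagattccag
H2-Q4, chr17:35379508-35379557, plus strand: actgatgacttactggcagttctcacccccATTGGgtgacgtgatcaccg
H2-Q6, chr17:35424741-35424790, plus strand: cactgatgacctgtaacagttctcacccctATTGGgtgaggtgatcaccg
H2-Q7, chr17:35439085-35439134, plus strand: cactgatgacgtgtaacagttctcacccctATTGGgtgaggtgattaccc
H2-M3, chr17:37270183-37270232, plus strand: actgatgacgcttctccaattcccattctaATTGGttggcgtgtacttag
H2-Q2, chr17:35342196-35342245, plus strand: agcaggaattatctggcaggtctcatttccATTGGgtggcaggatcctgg
H2-Q10, chr17:35469981-35470030, plus strand: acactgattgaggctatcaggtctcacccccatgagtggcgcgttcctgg
H2-T3, chr17:36190235-36190284, minus strand: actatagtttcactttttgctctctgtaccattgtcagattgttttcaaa
Identity to the H2-K1 stretch was 78.0% for H2-Q4, 74.0% for H2-D1, 56.0% for H2-Q6 and H2-M3, 54.0% for H2-Q2 and 52.0% for H2-Q7. It was 44.0% for H2-Q10 and for H2-T3, and in neither of these promoters was ATTGG found within the bases searched. In the promoters of the H2-M1, H2-M9, H2-M10 and H2-M11 genes, which were at or near 0 in all libraries, the closest window reached 38.0% to 46.0%. The windows of H2-T23 (25 of 50 bases identical) and H2-T22 (22 of 50), which were measured in every library, held no ATTGG, and that of H2-M10.1 did. These matches describe letters only.

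Among the non-classical genes, H2-Q10 encodes a class I heavy chain that is secreted by the liver. H2-Q10 (chr17:35470089-35474563, plus strand) was measured at 419 and 327 in liver, at 2.90 and 3.16 in lung, at 2.33 and 1.44 in small intestine and at 0.418 and 0.717 in kidney, which rested on 16688 and 14681 reads in the liver libraries and on 39 and 54 reads in the kidney libraries. The lower liver library was 103-fold above the highest library of any other tissue. The log2 difference in liver was 7.15 ± 0.18 (SE, adjusted p = 9.72e-08), and 8.10 with median-of-ratios scaling. In liver H2-Q10 made up 35.7% and 32.5% of the summed heavy chain FPKM, against at most 0.379% in the other libraries.

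Relative to its liver mean, H2-Q10 was at 0.112% and 0.192% in kidney, 0.777% and 0.849% in lung and 0.626% and 0.387% in small intestine. Albumin (Alb), a secreted product of hepatocytes, was at 0.0485% and 0.127% in kidney, 0.215% and 0.122% in lung and 0.0338% and 0.0404% in small intestine. Transthyretin (Ttr), also secreted by hepatocytes, was at 1.40% and 2.51% in kidney, 0.247% and 0.169% in lung and 0.178% and 0.0889% in small intestine. H2-Q10 lay above both in lung and small intestine, and above Alb but below Ttr in kidney. Of the 31-base words of H2-Q10, 30.3% occurred in another gene, most often in H2-Q7, and the part of shared reads in these low values was not tested.

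In small intestine, 6 non-classical genes were called higher (13.7% of all genes), of which H2-T3, H2-Bl and H2-Q3 passed the filter through small intestine alone, so that the filter fixed the direction of their calls. H2-T3, the thymus leukaemia antigen of intestinal epithelium that binds CD8 alpha homodimers (chr17:36185572-36190287, minus strand), was measured at 103 and 98.6 and at no more than 0.213 in any other library. The small intestine values rested on 2643 and 3047 reads and the others on 1 to 6 reads. The log2 difference was 6.51, and only 4.43% of the 31-base words of H2-T3 occurred elsewhere.

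H2-Q2 (chr17:35342242-35346762, plus strand) was measured at 0.428 and 0.556 in kidney, 0.600 and 0.400 in liver, 2.63 and 3.10 in lung and 308 and 337 in small intestine. The lower small intestine library was 99.4-fold above the higher lung library, and lung was called above liver and kidney. The log2 difference in small intestine was 7.30 ± 0.14 (SE, adjusted p = 1.88e-07). H2-Q1, which shares 31-base words with H2-Q2, was measured at 0.424 and 0.242 in kidney, 2.29 and 2.03 in liver, 2.76 and 6.56 in lung and 54 and 68.1 in small intestine, with a log2 difference of 4.45 ± 0.26 (SE, adjusted p = 6.50e-06) in small intestine. The lung libraries of H2-Q1 differed from each other by more than the liver libraries did, and kidney was called below all other tissues.

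H2-Bl was measured at 28.7 and 27 in small intestine and at no more than 0.260 in any other library, with a log2 difference of 4.66. H2-Q3 was listed at 0 in all 6 libraries of the other tissues and at 1.05 and 1.45 in small intestine. The pseudogene H2-T-ps, in which 48.4% of the 31-base words occurred elsewhere, was measured at 0.612 and 0.379 in kidney, 0.716 and 1.36 in liver, 1.92 and 2.56 in lung and 4.21 and 7.28 in small intestine and was called higher in small intestine (1.62). The lower calls of H2-T3 and H2-Bl in the other tissues are the same difference seen from the other side.

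Together H2-Q1, H2-Q2, H2-T3 and H2-Bl made up 29.7% and 31.9% of the summed heavy chain FPKM in small intestine and at most 0.539% in any other library. Fabp2, the fatty acid binding protein of enterocytes, was at 0.896% and 1.04% of its small intestine mean in liver and at 0.0355% to 0.226% in kidney and lung. The brush border enzymes Lct and Sis were at 0.0390% to 0.248% and at 0.0178% to 0.244% of theirs in the other tissues. H2-T3 was at 0.0169% to 0.211% of its own. H2-Q2 was at 0.815% and 0.960% in lung, above all 3 markers there, and at 0.124% to 0.186% in kidney and liver. Of the 31-base words of H2-Q2, 32.8% occurred in another gene, most often in H2-Q1. The part of shared reads in its low values was not tested. The bar chart of class I composition shows these shares.

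**Figure D3:**
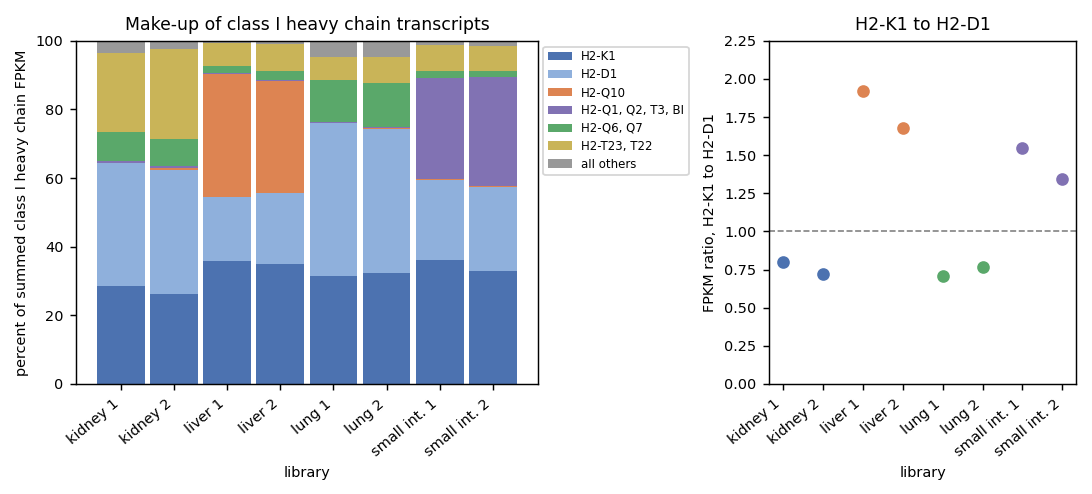
Composition of the summed class I heavy chain FPKM in each library, in percent, as stacked bars (left), and the ratio of H2-K1 to H2-D1 in each library as points, with a dashed line at 1 (right). H2-Q10 takes 32.5% to 35.7% of the bar in liver, and H2-Q1, H2-Q2, H2-T3 and H2-Bl together take 29.7% to 31.9% in small intestine, against at most 0.379% and 0.539% of the bars in the other tissues. H2-K1 and H2-D1 take most of every bar. The ratio lies above 1 in liver and small intestine and below 1 in kidney and lung.

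A further group of non-classical genes was highest in lung. H2-Q6 and H2-Q7 belong to the genes of the Qa-2 antigen. H2-Q6 was measured at 13.8 and 10.9 in kidney, 11.5 and 12.9 in liver, 140.4 and 173 in lung and 18.3 and 18 in small intestine, and H2-Q7 at 5.87 and 4.08 in kidney, 13.9 and 14.2 in liver, 74.7 and 91.6 in lung and 11.9 and 10.9 in small intestine. The lung libraries of both genes lay above all others, with log2 differences of 3.39 ± 0.14 (SE, adjusted p = 9.24e-07) for H2-Q6 and 3.02 ± 0.15 (SE, adjusted p = 2.11e-06) for H2-Q7 (2.23 and 1.87 with median-of-ratios scaling).

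H2-Q5 and H2-Q4 were also highest in lung, with values of 27.6 and 36 and of 12.5 and 16.4, and with at most 3.94 and 3.58 elsewhere. Their log2 differences in lung were 3.25 and 2.60. From 39.2% to 57.8% of the 31-base words of H2-Q4, H2-Q5, H2-Q6 and H2-Q7 occurred in another gene, mostly in one another or in H2-Q10, so that the split of reads among them is uncertain. The part of shared reads in their lung values was not tested.

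H2-M3, which presents N-formylated peptides of bacterial and mitochondrial origin, was measured at 1.98 and 1.29 in kidney, 1.44 and 2.63 in liver, 20.4 and 24.6 in lung and 4.09 and 3.01 in small intestine, with a log2 difference of 2.84 ± 0.21 (SE, adjusted p = 1.23e-05) in lung. H2-T24 was measured at 12.5 and 11.8 in lung and at most 1.99 elsewhere (2.49). H2-M2 and H2-T10 were low, at 3.24 and 2.70 and at 3.24 and 4.59 in lung, and their calls in lung ended with median-of-ratios scaling (0.87 and 0.69). H2-M3 was the highest gene of the H2-M series in every library.

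H2-T23 encodes Qa-1, which displays leader peptides of other class I chains to natural killer cell receptors. H2-T23 was measured at 32.4 and 30.1 in kidney, 58 and 61.1 in liver, 92.7 and 119 in lung and 112 and 107 in small intestine. Kidney lay below the other tissues (-1.47 ± 0.13 SE, adjusted p = 6.20e-05), a call that ended without mitochondrial genes in the scaling (-0.89), and the lung and small intestine libraries overlapped. Because the classical chains were lower still in kidney, H2-T23 took 14% and 15.9% of the heavy chain sum there and 4.95% to 6.72% in the other tissues.

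H2-T22, a ligand of some gamma-delta T cells, was measured at 20.2 and 19.9 in kidney, 19.8 and 18 in liver, 26.5 and 32.5 in lung and 14.7 and 16.3 in small intestine. It was the only tested member called in no pair of tissues, and its log2 difference in lung was 0.68 as deposited and -0.46 with median-of-ratios scaling. With 67.4% of its 31-base words found in another gene, most often H2-T10, its level is uncertain. The pseudogene H2-K2 was measured at 4.13 and 0.991 in kidney, 8.84 and 7.29 in liver, 21.1 and 28.8 in lung and 7.94 and 9.68 in small intestine and called higher in lung (1.97), a call that ended with median-of-ratios scaling (0.88).

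By class, the summed FPKM of the classical genes was 148 and 118 in kidney, 639 and 561 in liver, 1344 and 1533 in lung and 990.4 and 957 in small intestine. The sum of the non-classical genes was 82.3 and 71.1 in kidney, 533 and 446 in liver, 426 and 530.1 in lung and 676 and 708 in small intestine. As deposited, small intestine held the highest non-classical sum and lung the highest classical sum, and kidney held the lowest of both. With median-of-ratios scaling liver had the highest mean log2 difference for both, 1.09 for the classical and 1.75 for the non-classical sum, beside 0.57 and -0.50 in lung and 0.87 and 1.27 in small intestine. Under that scaling the classical sum of 1 liver library (894) lay below both small intestine libraries (897 and 914). The non-classical sum in liver was mostly H2-Q10, and without that gene its log2 difference as deposited went from 0.73 to -1.32. Of the 17 non-classical genes tested, 8 were called higher and 4 lower in lung (40.7% and 8.26% of all genes), and 6 and 5 with median-of-ratios scaling (14.6% and 16.0%). In kidney 14 were called lower (16.1%), and 12 with that scaling (12.1%). In liver 1 was higher and 8 lower (6.56% and 32.7%), and 1 and 3 with that scaling (12.3% and 13.9%). In small intestine 6 were higher and 1 lower under both scalings, beside 13.7% and 11.3% of all genes as deposited and 13.0% and 11.6% with that scaling.

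Class II genes gave a different order of tissues. H2-Aa, the alpha chain of I-A (chr17:34282744-34287823, minus strand), was measured at 26.3 and 32 in kidney, 16.8 and 22.8 in liver, 499.8 and 492 in lung and 131 and 135 in small intestine. The lower lung library was 3.66-fold above the higher small intestine library and 15.4-fold above the higher kidney library, and liver was lowest without being called apart from kidney. The log2 difference was 3.51 ± 0.14 (SE, adjusted p = 8.84e-07) in lung, 2.34 with median-of-ratios scaling, and -2.61 ± 0.14 (SE, adjusted p = 4.75e-06) in liver.

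H2-Ab1, the beta chain of I-A (chr17:34257689-34269419, plus strand), was measured at 29.6 and 36 in kidney, 16.3 and 21.7 in liver, 406 and 398 in lung and 163 and 191 in small intestine, with log2 differences of 3.04 ± 0.15 (SE, adjusted p = 1.68e-06) in lung and -2.76 in liver. H2-Eb1, a beta chain of I-E (chr17:34305867-34316674, plus strand), was measured at 32 and 23.2 in kidney, 11.5 and 12.6 in liver, 323 and 500.4 in lung and 165 and 157 in small intestine, with 3.37 ± 0.19 (SE, adjusted p = 3.33e-06) in lung and -3.23 in liver. H2-Eb1 was one of 2 members called in all 6 pairs of tissues. The alpha chain of I-E is not made in strain C57BL/6, and H2-Ea-ps was listed at 0 in every library. In small intestine H2-Ab1 (1.46) and H2-Eb1 (1.61) were called higher, while H2-Aa was not (0.99).

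The alpha to beta ratio of I-A differed among tissues. H2-Aa to H2-Ab1 was 0.887 and 0.888 in kidney, 1.03 and 1.05 in liver, 1.23 and 1.23 in lung and 0.800 and 0.705 in small intestine. The libraries of a tissue lay close together, lung was highest and small intestine lowest, and no libraries of different tissues overlapped. Less than 1% of the 31-base words of H2-Aa and H2-Ab1 (0.911% and 0.267%) occurred in another gene.

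The 12 class II genes summed to 98.1 and 102 in kidney, 48.1 and 63.6 in liver, 1395 and 1581 in lung and 496 and 528 in small intestine. Lung lay above small intestine, small intestine above kidney and kidney above liver without overlap as deposited, and with median-of-ratios scaling the kidney and liver libraries overlapped. Of the 12, 9 passed the filter, H2-Eb2 through lung alone and H2-DMb2, H2-Oa and H2-Ob through lung and small intestine alone. All 9 were called higher in lung under both scalings, where 40.7% of all genes were called higher as deposited and 14.6% with median-of-ratios scaling. For H2-Eb2 that direction was fixed by the filter. All 9 were called lower in liver (32.7% of all genes), of which 7 remained called with median-of-ratios scaling (13.9%). In kidney 8 were called lower (16.1% of all genes), the exception being H2-DMb1 (-0.89), and the call of H2-Eb2 ended with median-of-ratios scaling (12.1%). H2-Eb2, H2-DMb2, H2-Oa and H2-Ob reached an FPKM of 1 in neither kidney nor liver, so the filter favoured their lower calls in both. In small intestine H2-Ab1, H2-Eb1 and H2-DMa were called higher under both scalings (13.7% and 13.0% of all genes).

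H2-DM is the peptide exchange factor of class II, and H2-O is its inhibitor, known from B cells and some dendritic cells. H2-DMa was measured at 2.13 and 3.17 in kidney, 0.931 and 2.66 in liver, 44.4 and 49.2 in lung and 14.5 and 21.3 in small intestine, with 3.08 ± 0.27 (SE, adjusted p = 2.66e-05) in lung. The beta chain H2-DMb1 was measured at 7.07 and 7.0 in kidney, 2.20 and 2.87 in liver, 51.9 and 54.5 in lung and 14.1 and 18.9 in small intestine and called in all 6 pairs, whereas H2-DMb2 was measured at 0.654 and 0.541 in kidney, 0.0638 and 0.283 in liver, 32.2 and 39.8 in lung and 4.19 and 2.63 in small intestine. The excess of H2-DMb1 over H2-DMb2 was small in lung, where the ratio was 1.61 and 1.37, and at least 3.37 in every other library. These beta chains share 31.4% and 36.6% of their 31-base words, mostly with one another.

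H2-Oa was measured at 0.0710 and 0.132 in kidney, 0.0830 and 0.221 in liver, 8.57 and 8.76 in lung and 1.38 and 0.672 in small intestine, and H2-Ob at 0.340 and 0.183 in kidney, 0.242 and 0.307 in liver, 21.5 and 30.8 in lung and 2.20 and 1.68 in small intestine. The lung libraries lay above all others, and small intestine was called above kidney and liver for H2-Ob but not for H2-Oa. The log2 differences in lung were 2.83 ± 0.16 (SE, adjusted p = 3.17e-06) for H2-Oa and 4.0 ± 0.18 (SE, adjusted p = 1.20e-06) for H2-Ob. Relative to H2-Ab1 in the same library, H2-Ob was 0.0531 and 0.0773 in lung and at most 0.0149 elsewhere. H2-Eb2 was measured at 7.28 and 7.61 in lung and at most 0.580 elsewhere (2.81).

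Cd74, the invariant chain (chr18:60803848-60812652, plus strand), was measured at 68.3 and 97.3 in kidney, 58.1 and 71.6 in liver, 1668 and 1468 in lung and 422 and 556 in small intestine. Lung was highest, small intestine next, and the kidney and liver libraries overlapped. The log2 difference in lung was 3.50 ± 0.18 (SE, adjusted p = 2.24e-06), and 2.32 with median-of-ratios scaling. The ratio of Cd74 to the class II sum lay between 0.696 and 1.21 in all 8 libraries, a span of 1.74-fold, while the sum itself spanned 32.9-fold.

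Ciita, the class II coactivator (chr16:10480059-10528418, plus strand), was measured at 0.462 and 0.154 in kidney, 0.0623 and 0.258 in liver, 9.40 and 8.90 in lung and 2.03 and 2.35 in small intestine. The lower lung library was 3.78-fold above the higher small intestine library, and the kidney and liver libraries overlapped. The log2 difference in lung was 2.59 ± 0.15 (SE, adjusted p = 3.89e-06), and 1.79 with median-of-ratios scaling.

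**Figure D4:**
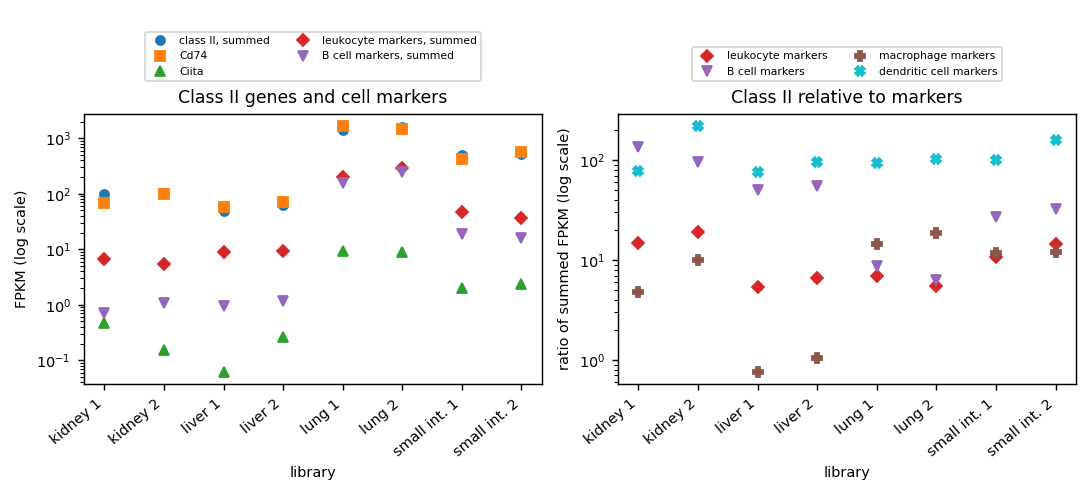
FPKM on a log axis of the class II sum, Cd74, Ciita, and the summed leukocyte and B cell markers in each library (left), and the ratio of the class II sum to 4 sets of immune cell markers on a log axis (right), with 1 point per library. Class II and B cell markers are both highest in lung, while the ratio to B cell markers is lowest there (6.36 and 8.79) and the ratio to macrophage markers is lowest in liver (0.763 and 1.05).

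Leukocyte and B cell markers, like class II, were highest in lung. In lung, where 40.7% of all genes were called higher, 3 of 3 leukocyte markers, 5 of 5 B cell markers, 4 of 4 dendritic cell markers, 4 of 6 macrophage markers, 2 of 4 T cell markers and 4 of 4 endothelial markers were called higher. The Kupffer cell marker Clec4f was called lower. With median-of-ratios scaling (14.6% of all genes) the leukocyte, B cell, T cell and endothelial counts stayed as they were, while 1 of 4 dendritic cell markers (Itgax) and 1 of 6 macrophage markers (Cd68) were called higher. All 3 leukocyte markers were called lower in kidney under both scalings (16.1% and 12.1% of all genes). In liver all 3 were called lower as deposited (32.7% of all genes) and 1, Coro1a, with median-of-ratios scaling (13.9%). None was called in small intestine under either scaling. The summed macrophage markers were 20.5 and 10.3 in kidney, 63.1 and 60.8 in liver, 97.1 and 84 in lung and 41.7 and 44.2 in small intestine. Clec4f, at 36.8 and 38.1 in liver, made up 58.4% and 62.7% of the liver sums. Mertk was the highest macrophage marker in both small intestine libraries (16.2 and 27.4) and in kidney replicate 1 (10.8), so those sums also leaned on a single gene. The summed leukocyte markers (Ptprc, Coro1a and Laptm5) were 6.64 and 5.33 in kidney, 8.93 and 9.50 in liver, 199.6 and 289 in lung and 46.4 and 36.5 in small intestine, and the summed B cell markers 0.722 and 1.06 in kidney, 0.951 and 1.16 in liver, 159 and 249 in lung and 18.5 and 16.1 in small intestine. Between kidney and liver the leukocyte markers went different ways, with Laptm5 at 3.68 and 2.38 in kidney and 6.48 and 7.21 in liver, and Coro1a at 2.45 and 2.72 in kidney and 2.0 and 1.77 in liver. The Ptprc libraries of these tissues overlapped. In bulk tissue, fewer cells of a type and less RNA per cell cannot be told apart, and the part of cell content in the class II differences was not tested.

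Within a library, class II over leukocyte markers was 14.8 and 19.2 in kidney, 5.39 and 6.69 in liver, 6.99 and 5.47 in lung and 10.7 and 14.5 in small intestine. Kidney was highest on this ratio, and the liver and lung libraries overlapped, so the lung excess of class II was not seen relative to these markers. Class II over B cell markers was 136 and 96.1 in kidney, 50.6 and 55 in liver, 8.79 and 6.36 in lung and 26.7 and 32.8 in small intestine, with lung lowest. Class II over macrophage markers was 4.78 and 9.98 in kidney, 0.763 and 1.05 in liver, 14.4 and 18.8 in lung and 11.9 and 11.9 in small intestine, with liver lowest and lung highest. Without Clec4f, a choice made after seeing the data, the liver ratios were 1.83 and 2.80, still the lowest. Class II over dendritic cell markers ranged from 75.5 to 220.2, and no tissue lay apart from all the others. The kidney ratios rested on dendritic cell marker sums of only 1.25 and 0.465, and the liver ratios on sums of 0.637 and 0.656.

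Class II promoters are known for an X box followed at a fixed distance by a Y box, bound by the RFX and NF-Y complexes to which Ciita is recruited. The X core AGNAAC followed on the same strand by ATTGG within 40 bases was found in 5 of 9 class II promoters, in 1 of 22 non-classical and 0 of 3 classical class I promoters, and in 1.82% of all promoters, searched on both strands. The 5 class II stretches are printed because their genes were called higher in lung and lower in liver. They run 5′ to 3′ on the strand of the gene, from GRCm38.p6, and capitals mark AGNAAC and ATTGG.
H2-Eb1, chr17:34305769-34305818, plus strand: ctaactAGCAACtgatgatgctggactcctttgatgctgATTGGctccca
H2-Eb2, chr17:34325536-34325585, plus strand: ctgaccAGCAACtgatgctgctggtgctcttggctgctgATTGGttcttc
H2-Ob, chr17:34238811-34238858, plus strand: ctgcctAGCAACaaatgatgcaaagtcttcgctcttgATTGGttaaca
H2-Oa, chr17:34092296-34092346, plus strand: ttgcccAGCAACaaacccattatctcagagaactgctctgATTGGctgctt
H2-DMb1, chr17:34153090-34153140, plus strand: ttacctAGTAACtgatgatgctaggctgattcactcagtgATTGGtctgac
The gap between both cores was 27 bases in H2-Eb1 and H2-Eb2, 25 in H2-Ob and 28 in H2-Oa and H2-DMb1. H2-Aa, H2-DMa and H2-DMb2, which were also highest in lung, had no such pair of cores in the bases searched but each held ATTGG in a promoter. H2-Ab1 and Cd74, highest in lung as well, were not among the member promoters searched. The non-classical match was H2-M2, on the strand opposite to the gene. The core of the interferon-stimulated response element (GAAA, any 2 bases and GAAA) was found in the promoters of H2-T23, H2-T22 and B2m and in 2.98% of all promoters.

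The other genes of the class I pathway were described by a list of 11 for peptide supply and loading, all of which were tested. In lung 6 were called higher (40.7% of all genes), in kidney 8 lower (16.1%), in liver 3 lower (32.7%) and in small intestine 7 higher (13.7%). With median-of-ratios scaling none was called in lung (14.6%), 8 were lower in kidney (12.1%), 2 higher and none lower in liver (12.3% and 13.9%) and 7 higher in small intestine (13.0%). Psmb8, Psmb9 and Psmb10 are the catalytic subunits of the immunoproteasome. Psmb10 was measured at 3.61 and 4.85 in kidney, 10.2 and 11.7 in liver, 39.4 and 48 in lung and 99.9 and 73.4 in small intestine, and small intestine and lung both lay above liver and kidney (2.63 ± 0.17 SE, adjusted p = 1.14e-05 in small intestine and -2.79 ± 0.17 SE, adjusted p = 1.25e-05 in kidney). Psmb8 had log2 differences of -2.64 in kidney and 1.89 in small intestine, and Psmb9 of -2.27 and 1.64.

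Of 6 genes of class II processing, 3 were called higher in lung (40.7% of all genes), 2 higher and 1 lower in kidney (8.65% and 16.1%), 1 higher and 3 lower in liver (6.56% and 32.7%), and 2 higher and 3 lower in small intestine (13.7% and 11.3%). With median-of-ratios scaling 1 was higher in lung (14.6%) and 2 higher and 1 lower in liver (12.3% and 13.9%), and the counts in kidney and small intestine stayed as they were. Ctss, the cathepsin that removes the invariant chain in antigen-presenting cells, was measured at 7.14 and 7.91 in kidney, 23.1 and 26.6 in liver, 186 and 165 in lung and 114 and 111 in small intestine, with 2.59 ± 0.12 (SE, adjusted p = 1.20e-06) in lung. Ifi30, a lysosomal thiol reductase, was called higher in lung (1.54) and small intestine (2.01) and lower in liver (-2.61), and in lung it was not called with median-of-ratios scaling (0.38). Ctsl, a broadly expressed lysosomal cathepsin, went the other way and was measured at 71.8 and 65.3 in kidney, 63.1 and 56.5 in liver, 35.7 and 39.1 in lung and 5.78 and 4.31 in small intestine, with -3.18 ± 0.13 (SE, adjusted p = 1.35e-06) in small intestine.

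Of 9 factors that bind MHC promoters or act in interferon signalling, 4 were called higher in lung (40.7% of all genes). In liver 3 were called lower (32.7%). None of these calls was made with median-of-ratios scaling (14.6% and 13.9% of all genes), where 1, Nfyb, was higher in liver (12.3%). Under both scalings 2 were called lower in kidney (16.1% of all genes as deposited and 12.1% with median-of-ratios scaling). Likewise 1 was called higher in small intestine under both (13.7% and 13.0%). Irf1, an interferon-induced activator, was measured at 2.56 and 1.95 in kidney, 5.13 and 6.41 in liver, 32.4 and 43.6 in lung and 40.5 and 43.7 in small intestine, with -2.79 ± 0.16 (SE, adjusted p = 1.02e-05) in kidney and 2.19 ± 0.16 (SE, adjusted p = 2.21e-05) in small intestine. Irf2, a related factor, was called higher in lung (1.16) and lower in kidney (-1.71). Nfya, a subunit of NF-Y, was called higher in lung (1.54) and lower in liver (-1.41), and both calls ended with median-of-ratios scaling (0.61 and -0.75).

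**Figure D5:**
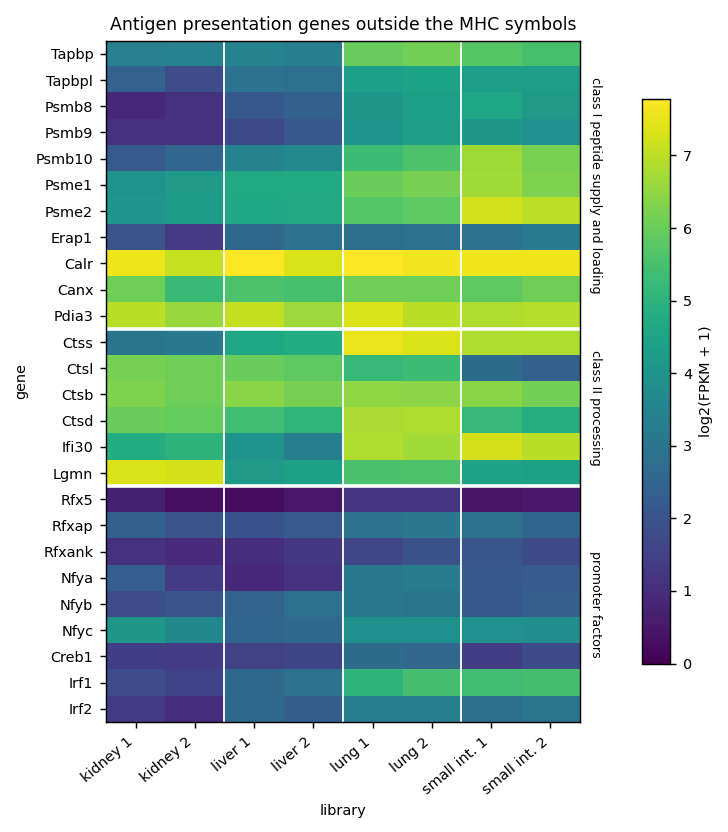
Heat map of the genes of class I peptide supply and loading, class II processing and MHC promoter factors (vertical axis) in the 8 libraries (horizontal axis), coloured by log2(FPKM + 1). The kidney libraries are darkest for Irf1, Psmb8, Psmb9, Psmb10 and Ctss, and the small intestine libraries are darkest for Ctsl.

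Between pairs of tissues, the members called were 31 between kidney and lung, where 50.3% of all genes were called, 25 between kidney and small intestine (29.5%) and 26 between liver and lung (62.7%). There were 27 between lung and small intestine (40.6%), 19 between liver and small intestine (36.2%) and 9 between kidney and liver (23.1%). With median-of-ratios scaling 17 were called between lung and small intestine (30.7%). The 9 between kidney and liver were H2-K1, H2-D1, B2m, H2-Q10, H2-Q1, H2-Q7, H2-K2, H2-Eb1 and H2-DMb1, of which the class II genes H2-Eb1 and H2-DMb1 were higher in kidney and the others higher in liver.

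The remaining 16 members did not pass the filter. H2-M5 was the highest of them, at 0.837 and 1.23 in lung, on 22 and 41 reads, and at most 0.216 elsewhere. H2-M6-ps reached 0.467 in 1 lung library. Another 7 members (H2-Ea-ps, H2-M1, H2-M10.3, H2-M10.4, H2-M10.5-ps1, H2-M11 and H2-Pa) were listed at 0 in every library, and the other 7 reached at most 0.207 in any library. For a gene of 1 kilobase, 3 reads corresponded to an FPKM of 0.140 to 0.327, so values below this rested on fewer than 3 reads per kilobase, and a gene listed at 0 may have been present at such levels.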

How the data were processed

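Bulk RNA from 4 tissues of C57BL/6 mice was sequenced in 8 libraries. By the methods of the study, the authors mapped reads with STAR (2.5.3a per the labels) to GRCm38 and deposited FPKM values made with the fpkm function of DESeq2. Strand setting and treatment of reads that map to several genes are not given in the sources used here. FPKM holds no counts, so a count model was not the test. Reads behind low values were recovered from the FPKM steps and GENCODE M21 exon lengths, which matched 51844 of 52195 symbols (99.3%) and all 51 members. Values between 1 and 50 reads came out whole, within a tolerance of 0.02 reads, in 94.5% to 96.1% of cases per library. The 10 members whose values were not whole have no reads quoted.

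The 16328 genes that reached an FPKM of 1 in 2 or more libraries were tested on log2(FPKM + 1) with limma 3.58.1 in R 4.3.3 (lmFit, eBayes with trend), all 8 libraries in 1 fit with no covariate, and with Benjamini-Hochberg adjustment over all genes tested. The fit was tested on simulated data. Alternatives were pseudocount 0.1, no filter on low values, no threshold on the log2 difference, median-of-ratios scaling, scaling without mitochondrial genes, limma without a trend, limma-voom on the recovered reads, a replicate block and leaving out each library. Class sums and ratios have no test. Errors are SE of the fit, from 2 libraries per tissue.

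Tissue and number came from the labels. The labels do not say whether a replicate number marks a mouse. Correlations of the deviations of same-numbered libraries between tissues were -0.217 to 0.0528, which cannot show whether these libraries came from the same mouse. Named were the partners and regulators, the main class I and class II genes, every other H2- gene with a mean FPKM of at least 1 in a tissue, and of each pathway list the 3 called genes with the largest difference. 1 gene of the list of promoter factors is not reported here. The members, lists and tests were chosen with earlier results of these data known. Shared sequence was measured as the percent of 31-base words of a gene's exons that occur in another gene. Promoter sequences are from RefSeq.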

Additional observations from a re-analysis of the deposited data

How the results depend on the processing

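Of the 96 member calls against the mean of the other 3 tissues, over all 4 tissues, 75 were kept with median-of-ratios scaling, which made 3 others. The 21 that ended were 8 of lung, 8 of liver, 4 of kidney and 1 of small intestine. Under the other alternatives that kept all libraries, 94 to 96 were kept, with 26 others made without the threshold on the log2 difference, 10 with a pseudocount of 0.1, 8 with limma-voom on recovered reads and 4 without mitochondrial genes. Those that ended were H2-T23 (-0.89) and H2-Q6 of kidney without mitochondrial genes, H2-Q2 of lung with a pseudocount of 0.1 and with limma-voom, and H2-Q1 of liver with limma-voom. With 1 library left out, 85 to 95 were kept, of 87 to 96 still tested. The calls ended were H2-M2 of kidney (without kidney replicate 1 or small intestine replicate 1), H2-T10 of kidney (without kidney replicate 2, liver replicate 2, lung replicate 2 or small intestine replicate 1), Nlrc5 of kidney (without kidney replicate 2), H2-M3 of liver (without liver replicate 1) and H2-DMa of small intestine (without small intestine replicate 2). None of these calls changed sign under these alternatives. H2-T22 in lung, not called, turned to -0.46 with median-of-ratios scaling, and without the threshold it was called. With the replicate block, 96 calls of members were made against the mean of the other 3 tissues, the same 96 as without it. The pairs gave 9, 31, 25, 26, 19 and 27 calls with and without the block. The labels do not say which mouse a library came from, and the block changed no call.

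Counts of members moved in a few settings. Among these settings, shares of all genes are given only for median-of-ratios scaling. The other moves are therefore not read as results about the members. Without the threshold on the log2 difference there were 3 members higher in liver, 6 lower in small intestine and 15 called between kidney and liver. With median-of-ratios scaling there were 3 higher and 12 lower in liver and 17 between lung and small intestine. Leaving out either library of small intestine took H2-Bl, H2-Q3 and H2-T3 below the filter, and 2 members were then called lower in lung. Over all libraries left out in turn, lower calls numbered 27 to 31 in kidney, 18 to 22 in liver, 2 to 4 in lung and 1 in small intestine, and higher calls numbered 0 in kidney, 1 in liver, 25 to 26 in lung and 9 to 14 in small intestine. Pairs then gave 7 to 9 for kidney and liver, 29 to 31 for kidney and lung, 22 to 26 for kidney and small intestine, 24 to 26 for liver and lung, 16 to 20 for liver and small intestine and 21 to 27 for lung and small intestine.

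Log2 differences of the classical class I sum, which have no test, were -2.82 in kidney, 0.069 in liver, 1.75 in lung and 1.0 in small intestine. With median-of-ratios scaling they were -2.53 in kidney, 1.09 in liver, 0.57 in lung and 0.87 in small intestine. Without mitochondrial genes they were -2.23 in kidney, -0.11 in liver, 1.41 in lung and 0.92 in small intestine. Without the highest gene, H2-K1, they were -2.44 in kidney, -0.45 in liver, 2.14 in lung and 0.74 in small intestine. Leaving out 1 library gave -2.98 to -2.66 in kidney, -0.025 to 0.16 in liver, 1.65 to 1.84 in lung and 0.95 to 1.06 in small intestine.

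For the non-classical sum these differences were -2.81 in kidney, 0.73 in liver, 0.68 in lung and 1.40 in small intestine. With median-of-ratios scaling they were -2.52 in kidney, 1.75 in liver, -0.50 in lung and 1.27 in small intestine. Without mitochondrial genes they were -2.22 in kidney, 0.34 in lung and 1.32 in small intestine. Without the highest gene, H2-Q10, they were -2.13 in kidney, -1.32 in liver, 1.36 in lung and 2.09 in small intestine. Leaving out 1 library gave -2.92 to -2.71 in kidney, 0.60 to 0.86 in liver, 0.52 to 0.84 in lung and 1.35 to 1.45 in small intestine.

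For the class II sum these differences were -1.79 in kidney, -2.92 in liver, 3.38 in lung and 1.33 in small intestine. With median-of-ratios scaling they were -1.49 in kidney, -1.90 in liver, 2.20 in lung and 1.20 in small intestine. Without mitochondrial genes they were -1.19 in kidney, 3.04 in lung and 1.25 in small intestine. Without the highest gene, H2-Aa, they were -1.73 in kidney and 1.46 in small intestine. Leaving out 1 library gave -1.86 to -1.73 in kidney, -3.11 to -2.72 in liver, 3.29 to 3.47 in lung and 1.27 to 1.40 in small intestine.

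For the ratio of class II to leukocyte markers these differences were 1.12 in kidney, -0.86 in liver, -0.80 in lung and 0.54 in small intestine. With B cell markers as denominator they were 2.33 in kidney, 0.85 in liver, -2.91 in lung and -0.27 in small intestine. With macrophage markers they were 0.30 in kidney, -3.63 in liver, 1.97 in lung and 1.35 in small intestine. With macrophage markers but not Clec4f, chosen after seeing the data, they were -0.14 in kidney, -2.29 in liver, 1.52 in lung and 0.90 in small intestine. With dendritic cell markers they were 0.37 in kidney, -0.46 in liver and -0.19 in lung. Leaving out 1 library gave 0.93 to 1.31 in kidney, -1.02 to -0.70 in liver, -0.98 to -0.63 in lung and 0.32 to 0.76 in small intestine.

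With 2 libraries per tissue the spread is shared by all tissues, and the lone library left in a tissue was assumed to vary like the others. Reads shared among class I genes, and members below 3 reads, limit what these libraries show. The classical sum in liver turned to -0.025 without liver replicate 1. The cause of the moves under other scalings was not tested.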
